A study of Mus musculus with 10 samples.

Results

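The skeletal muscle program genes are 32 genes of the 23197 in the deposited count table: the transcription factors that set up muscle, the proteins of the contractile apparatus and the surface proteins of the nerve-muscle contact. They were chosen by name with earlier results of these data known, because a few cells of the course carried many of them at once. Their values are therefore a description of the cells, with no test. The course is a chemical reprogramming of mouse embryonic fibroblasts (MEFs) towards cells that resemble extraembryonic endoderm (XEN-like cells), and it was followed by RNA sequencing of hand-picked single cells. The starting MEFs were of the ICR strain and of day E13.5, prepared from what is left of an embryo without its head, limbs and inner organs. Cells after d0 came from cultures changed to medium with the C6FAE cocktail, which holds CHIR99021, Forskolin, AM580, EPZ004777 and an inhibitor of the TGF-beta receptor whose code name gives the 6. No untreated cells of the later times were analysed here. The 12 groups of cells are d0, d1, d2, d3, d4, d5, d6p, d8, d8c, d12, d12c and d20, where the number is the day, c marks cells picked from colonies and the meaning of p is not stated. Of 808 deposited cells, 670 had at least 4000 detected genes and were kept.

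Skeletal muscle is built in steps. The basic helix-loop-helix factors *Myod1*, *Myf5*, *Myf6* and *Myog* bind E-boxes (CANNTG) and, together with Mef2 proteins, switch on the genes of the contractile apparatus in cells that leave the cell cycle and fuse. Fibroblast cultures from embryos are made from mixed tissue that can include muscle and its precursors.

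The upstream sequences of 5 members are shown because the values below turn on them. *Myog* is the factor of the differentiation step, *Acta1* and *Actc1* encode the sarcomeric alpha-actins, and *Chrna1* and *Csrp3* had courses of their own across the time points. Each line holds the 250 bases before the annotated start, 5′ to 3′ along the gene, from RefSeq on GRCm38.p6, with every CANNTG in capitals. The stretches are chr1:134289754-134290003 on the plus strand (*Myog*), chr8:123894776-123895025 on the minus strand (*Acta1*), chr2:114052876-114053125 on the minus strand (*Actc1*), chr2:73580339-73580588 on the minus strand (*Chrna1*) and chr7:48848052-48848301 on the minus strand (*Csrp3*).
Myog: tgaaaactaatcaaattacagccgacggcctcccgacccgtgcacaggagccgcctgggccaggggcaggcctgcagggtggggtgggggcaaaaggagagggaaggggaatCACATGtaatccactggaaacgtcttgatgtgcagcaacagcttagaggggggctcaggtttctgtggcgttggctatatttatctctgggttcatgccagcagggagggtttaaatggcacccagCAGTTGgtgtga
Acta1: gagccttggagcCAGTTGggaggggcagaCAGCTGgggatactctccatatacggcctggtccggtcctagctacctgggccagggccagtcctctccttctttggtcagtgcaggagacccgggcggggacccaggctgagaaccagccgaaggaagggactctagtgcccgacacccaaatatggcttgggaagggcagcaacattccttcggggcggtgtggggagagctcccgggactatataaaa
Actc1: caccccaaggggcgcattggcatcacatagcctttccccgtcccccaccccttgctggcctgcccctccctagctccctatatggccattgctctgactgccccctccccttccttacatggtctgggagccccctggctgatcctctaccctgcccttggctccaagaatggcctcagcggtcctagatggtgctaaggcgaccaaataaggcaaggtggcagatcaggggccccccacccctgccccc
Chrna1: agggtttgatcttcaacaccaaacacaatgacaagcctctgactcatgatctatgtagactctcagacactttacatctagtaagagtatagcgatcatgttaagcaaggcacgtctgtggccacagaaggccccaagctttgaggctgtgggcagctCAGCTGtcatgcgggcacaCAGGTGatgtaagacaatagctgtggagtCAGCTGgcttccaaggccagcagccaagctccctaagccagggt
Csrp3: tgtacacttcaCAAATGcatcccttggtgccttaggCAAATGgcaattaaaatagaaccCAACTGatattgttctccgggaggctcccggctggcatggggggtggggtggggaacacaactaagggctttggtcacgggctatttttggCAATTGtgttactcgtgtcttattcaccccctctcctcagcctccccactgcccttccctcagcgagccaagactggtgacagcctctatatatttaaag
*Actc1* had no CANNTG in this window, *Myog* and *Acta1* had 2, *Chrna1* had 3 and *Csrp3* had 4. CANNTG reads the same on both strands, and CAGCTG, one of its forms, stood once in *Acta1* and 2 times in *Chrna1*. Over the 26 members with an entry, 22 (84.6%) held a CANNTG against 69.3% of 27025 genes, and 11 (42.3%) held a CAGCTG against 14.7%. The MEF2 motif, searched on both strands, stood before 3 members, *Ttn*, *Casq2* and *Myh8* (11.5% against 3.42% of all genes). The pattern asked for C or T, then TA, 4 bases of A or T, TA, and A or G. Near matches were not counted, such as ctatatttat in the *Myog* line, which differs only at its last base. The CArG box, the site of serum response factor, stood before *Acta1* and *Actc1* (7.69% against 1.62%). These matches are letters in a short window and no sites of binding. No entry was used for *Myod1*, *Myf6*, *Mymx*, *Tnnt3*, *Tnni2* and *Neb*.

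The kept cells had a median of 510306 UMIs, the counted molecules, from 17633 to 6004864. Levels are UMIs per 1000000 UMIs of the cell without spike-in RNAs (CPM). No cell name says which of the 10 sequenced samples it came from, so all cells were treated as 1 sample, no test between groups was made and intervals at 95% cover counting error only. A mean over the cells of a time point does not tell fewer expressing cells from less RNA per cell, which is why values per cell are given throughout. Values given for other cells, or elsewhere, are those of the kept cells. Filtering removed 138 cells, among them 45 of 96 at d12c and 34 of 72 at d20.

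Many members at once were found in very few cells. A member was counted in a cell at 10 CPM or more. By this measure 62 kept cells had none of the 32 members, 395 (59.0%, exact interval 55.1 to 62.7%) had 1 or 2, and 203 (30.3%) had 3 to 7. Only 10 cells (1.49%, 0.718 to 2.73%) reached 8, the number taken as many. Among these 10 there was a gap: 7 cells had 8 to 11 members, no kept cell had 12 to 18, and 3 cells (0.448%, 0.0924 to 1.30%) had 19 or 28. The gap depends on the filter on cells, since a removed cell, d8 cell 45, had 14 members. Just inside the limit of 8 lay 4 cells with exactly 8, all from d4, and just outside lay 3 cells with 7, from d0, d1 and d4.

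**Figure D1:**
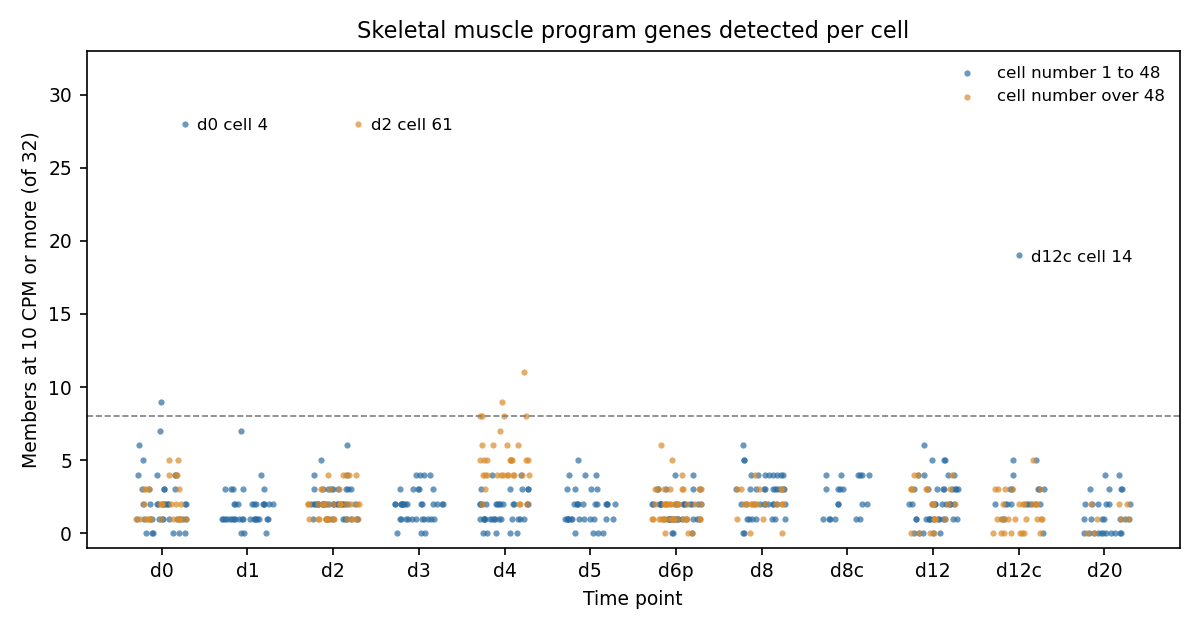
Number of the 32 members at 10 CPM or more (vertical axis) in each of the 670 kept cells, by time point (horizontal axis), with points spread sideways and coloured by the running number of the cell. The dashed line marks 8 members. d0 cell 4, d2 cell 61 and d12c cell 14 stand at 28, 28 and 19, and no other cell exceeds 11.

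The 3 cells came from 3 time points. d0 cell 4 had 28 members among 124320 UMIs, d2 cell 61 had 28 among 208106, and d12c cell 14 had 19 among 161839. Member UMIs numbered 13508, 15233 and 20964, or 10.9%, 7.32% and 13.0% of all UMIs of the cell. In the other 667 cells the summed member level had a median of 109 CPM and a highest value of 3319 CPM, in d8 cell 30, where *Csrp3* alone gave 2955 CPM. The 3 cells held 49705 of the 152451 member UMIs of all kept cells (32.6%). Per time point this was 1 of 72 cells at d0 (1.39%, 0.0352 to 7.5%), 1 of 83 at d2 (1.20%, 0.0305 to 6.53%) and 1 of 51 at d12c (1.96%, 0.0496 to 10.4%). No such cell was kept at d4, where 0 of 77 cells allows a share of up to 3.90%, or at d12, where 0 of 67 allows up to 4.48%, and the 38 cells of d20 allow up to 7.89%. All 3 cells were shallower than the median cell of their time point (344196 UMIs at d0, 1055206 at d2 and 326260 at d12c). They also had fewer detected genes, 5307, 6027 and 5543, against medians of 6720, 8641 and 6007.

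Of the transcription factors, *Myog* was present in all 3 cells. Its level was 4424 CPM (550 UMIs) in d0 cell 4, 1355 CPM (282 UMIs) in d2 cell 61 and 704 CPM (114 UMIs) in d12c cell 14. The highest value in any other cell was 117 CPM, but *Myog* is among the members that picked the 3 cells. *Myod1*, which commits cells to the muscle lineage, stood at 579 and 197 CPM in d0 cell 4 and d2 cell 61 and had no UMI in d12c cell 14. *Myf6*, also called Mrf4, was found at 442 CPM in d2 cell 61, with no UMI in the other 2 of the 3, and its highest value elsewhere was 7.49 CPM. *Myf5*, the earliest of the 4 factors in the embryo, had no UMI in any of the 3 and appeared in a single kept cell, d2 cell 35, at 21.2 CPM. The factors therefore differed among the 3 cells, with *Myog* the only one they shared.

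The fusion and surface members followed. *Mymx* encodes the small membrane protein that opens the fusion pore between myoblasts, and it reached 1022 CPM in d0 cell 4 and 514 CPM in d2 cell 61, against at most 31.0 CPM in other cells. It had no UMI in d12c cell 14. *Cdh15*, the muscle cadherin, stood at 153, 139 and 198 CPM in d0 cell 4, d2 cell 61 and d12c cell 14, above a highest other value of 33.7 CPM.

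The myosin members included chains of developing muscle and fast light chains. Embryonic *Myh3* was at 1496, 1100 and 327 CPM in d0 cell 4, d2 cell 61 and d12c cell 14, and perinatal *Myh8* at 225, 716 and 346 CPM. *Myh8* is the member most tied to these cells: 233 of its 246 UMIs (94.7%) lay in the 3, and its highest other value was 2.4 CPM. The fast regulatory light chain *Mylpf* stood at 9854, 4306 and 16862 CPM, the fast essential light chain *Myl1* at 3925, 7549 and 7180 CPM, and the embryonic and atrial light chain *Myl4* at 5767, 4060 and 5814 CPM. *Mybph*, a myosin-binding protein, had no UMI in any kept cell.

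Both sarcomeric actins were high in the 3 cells, in different proportions. *Actc1*, the form of heart and developing muscle, stood at 15613, 5137 and 8311 CPM in d0 cell 4, d2 cell 61 and d12c cell 14. *Acta1*, the form of mature skeletal muscle, stood at 12983, 8227 and 52707 CPM. UMIs of *Acta1* per UMI of *Actc1* were thus 0.832, 1.60 and 6.34. The 2 genes encode near-identical proteins, and it is not stated how reads that fit both transcripts were counted. *Des*, which encodes the intermediate filament desmin, was at 2679, 115 and 1854 CPM, and the value of d2 cell 61 lay below that of the highest other cell, d12 cell 65 with 400 CPM.

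The troponins, the calcium switch of the thin filament, were all present in each of the 3 cells. *Tnnc1*, the slow and cardiac troponin C, stood at 16136, 7818 and 9862 CPM in d0 cell 4, d2 cell 61 and d12c cell 14 and did not exceed 98.7 CPM elsewhere. Its fast counterpart *Tnnc2* stood at 4529, 10634 and 6371 CPM, with at most 13.3 CPM elsewhere. The slow inhibitory subunit *Tnni1* was at 3571, 3479 and 4925 CPM and the fast one, *Tnni2*, at 450, 456 and 1650 CPM. Of the troponin T genes, slow *Tnnt1* was at 4657, 899 and 2082 CPM, cardiac *Tnnt2* at 5421, 1245 and 2224 CPM and fast *Tnnt3* at 4134, 2681 and 7100 CPM. Slow, fast and cardiac forms were thus found side by side in each of the 3 cells.

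The giant and Z-disc members separated d12c cell 14 from the other two. *Ttn*, titin, was at 4987 and 2571 CPM and *Neb*, nebulin, at 2839 and 1586 CPM in d0 cell 4 and d2 cell 61, and neither had a UMI in d12c cell 14. *Ankrd2*, a stretch-responsive protein of the sarcomere, was at 32.2 and 1547 CPM in the same 2 cells, and *Csrp3*, the muscle LIM protein, at 80.4 and 942 CPM, both without a UMI in d12c cell 14. With 161839 UMIs, the limit of 3 counts in d12c cell 14 lies at 18.5 CPM.

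The members of calcium release and the receptor were mixed in this respect. *Casq2*, the calcium store protein calsequestrin, was found in all 3, at 627, 1110 and 519 CPM. *Ryr1*, the calcium release channel, was at 129 and 159 CPM and had no UMI in d12c cell 14. *Cacna1s*, its voltage sensor, was at 105 CPM in d0 cell 4 alone. *Chrng*, the fetal subunit of the acetylcholine receptor, was at 402 and 654 CPM and had no UMI in d12c cell 14, while *Chrna1*, the alpha subunit, was at 1834, 3561 and 500.5 CPM. *Ckm*, the muscle creatine kinase of mature fibres, had 1 UMI in all kept cells, in d4 cell 71.

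Counted over the members, 17 of 32 were higher in each of the 3 cells than in any of the other 667, 8 were so in 2 of the 3 cells, 3 in 1, and 4 in none (*Myf5*, *Mybph*, *Csrp3* and *Ckm*). The 3 cells were picked by these same members, so the counts and the shares that follow only describe the choice. The share over all genes was not computed. Of 105 other muscle genes, a list described below, 43 were higher in at least 1 of the 3 cells than in any of the other 667. This rule is looser than that of the 17 members, and without a share over all genes neither count is read as a result. The share of a member's UMIs that lay in the 3 cells had a median of 66.7% over the 31 members with a UMI. It was under 10% for 4 members, *Myf5*, *Csrp3*, *Chrna1* and *Ckm*.

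**Figure D2:**
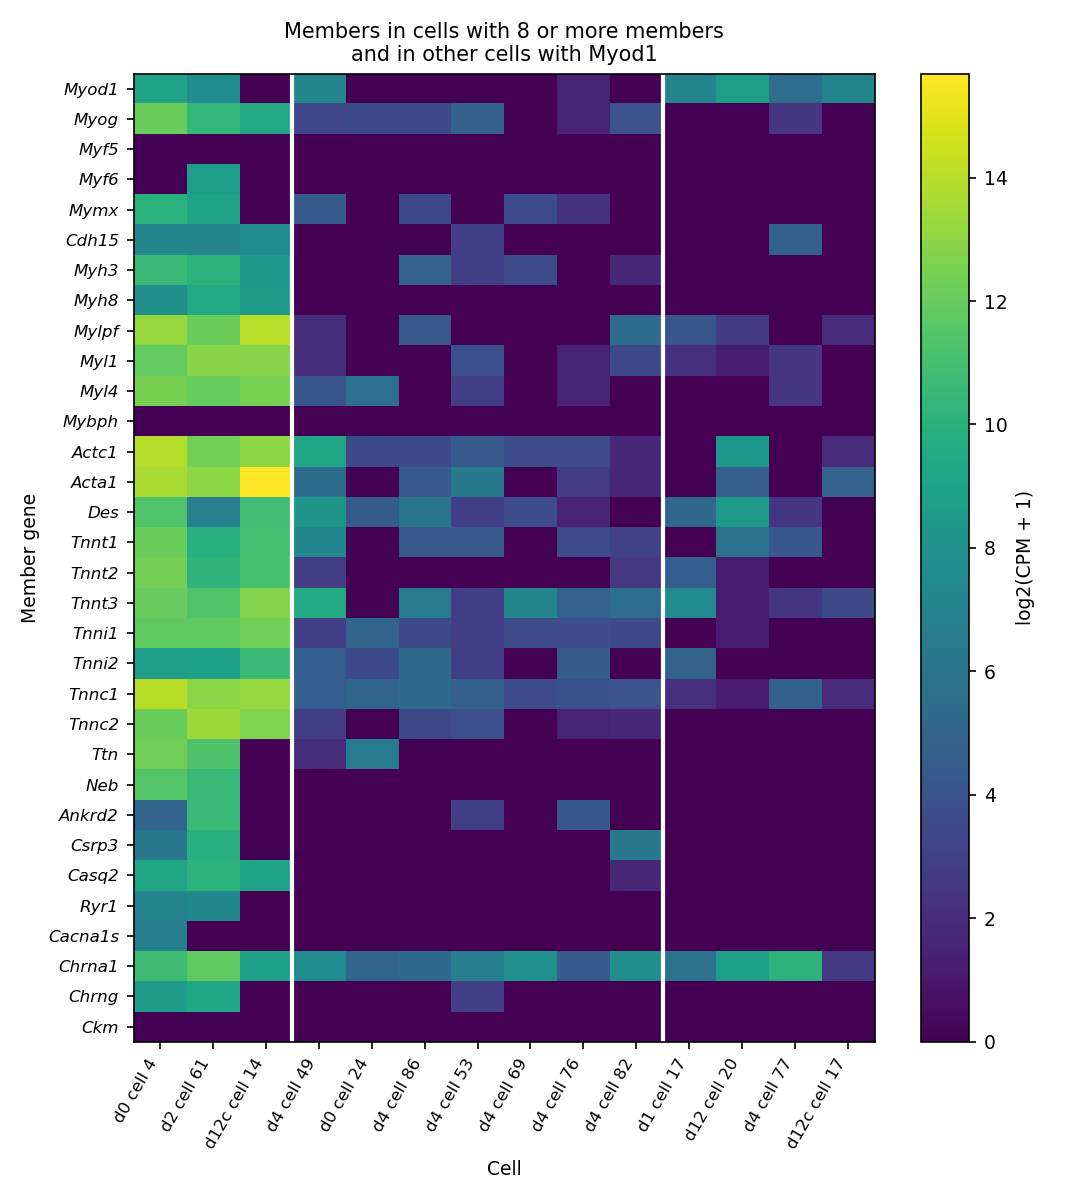
Level of each member (rows) as log2(CPM + 1), given by colour, in the 10 cells with 8 or more members and in 4 further cells with *Myod1* at 10 CPM or more (columns). White lines part the 3 cells with 19 or 28 members, the 7 cells with 8 to 11 and the further cells. d0 cell 4 and d2 cell 61 have 28 of the 32 rows at 10 CPM or more and d12c cell 14 has 19, while the other 11 cells have 3 to 11, with *Chrna1* and *Tnnc1* at that level in all 7 cells of the middle block.

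The other 7 cells with many members were of another kind. Their member UMIs came to between 0.0164% and 0.234% of all UMIs. They were d0 cell 24 with 9 members and 6 d4 cells, numbered 49, 53, 69, 76, 82 and 86, with 8 to 11. d4 cell 49 stood apart from the others with 11 members and 754 member UMIs. It had *Tnnt3* at 739 CPM, *Actc1* at 618, *Des* at 310.5, *Chrna1* at 196, *Tnnt1* at 161 and *Myod1* at 146 CPM, with *Myog* at 9.31 CPM and no UMI of *Myh3* or *Myh8*. The other 6 had between 27 and 184 member UMIs in all, and most of their members rested on few UMIs: in d0 cell 24, 9 members shared 27 UMIs. In d0 cell 24, with 94720 UMIs, and d4 cell 69, with 84473, a single UMI already exceeded 10 CPM. Counting only from 20 CPM left 4 cells with 8 or more members, and from 50 CPM left 3.

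*Myod1* reached 10 CPM in 5 cells outside the 3. The levels were 445 CPM in d12 cell 20, 146 in d4 cell 49, 137 in d1 cell 17, 132 in d12c cell 17 and 46.8 in d4 cell 77. None of these cells had *Myog* at 10 CPM. d12 cell 20 carried *Des* at 345, *Actc1* at 325, *Chrna1* at 468 and *Tnnt1* at 60.1 CPM beside *Myod1*, without a UMI of *Tnni2*, *Tnnc2*, *Ttn* or *Myh3*. d12c cell 17 had, beside *Myod1*, only *Acta1* at 29.7 and *Tnnt3* at 10.8 CPM above the limit.

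A list of 105 other muscle genes in 8 groups, chosen by function, was measured in the same cells. At 10 CPM or more d0 cell 4 had 66 of them, d2 cell 61 had 61 and d12c cell 14 had 32, against medians of 16, 17 and 12 in other cells of the same time points. Of the 7 remaining cells, d4 cell 49 had 25 and the others 16 to 18, against 16 in the median d0 and d4 cell. The 10 with the largest difference between the 10 cells and the others were *Pdlim3*, *Mymk*, *Mybpc1*, *Klhl41*, *Cox6a2*, *Mef2c*, *Musk*, *Myoz2*, *Eno3* and *Actn2*. *Mef2c*, the partner of the myogenic factors, stood at 1408, 2830 and 2416 CPM in d0 cell 4, d2 cell 61 and d12c cell 14, with a median of 0 in other cells. *Mymk*, the second protein of the fusion step, stood at 241, 1009 and 525 CPM, and *Cox6a2*, a muscle form of a cytochrome oxidase subunit, at 249, 836 and 649 CPM. *Musk*, the kinase that gathers acetylcholine receptors, was at 72.4, 1269 and 655 CPM, and *Actn2*, the alpha-actinin of the Z-disc, at 941, 144 and 161 CPM. By groups, the receptor and synapse genes were at 10 CPM in 6, 3 and 1 of 7 cases, the calcium handling genes in 10, 11 and 3 of 15, and the genes of thin filament and Z-disc in 16, 19 and 9 of 23. The upstream regulators were at that level in 5, 1 and 0 of 13, and *Pax7*, which marks muscle stem cells, had no UMI in any of the 3.

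The difference of the mean of log2(CPM + 1) was taken between cells for all genes with a mean of at least 1 on either side, and a gene was called past 2. Between the 10 cells and the 273 others of d0, d2, d4 and d12c, 0.834% of 9827 genes were called higher. The members chose these cells, and 24 of the 27 tested were higher. Of the 105 other muscle genes 60 could be tested, and 15 were higher and none lower. Most of the 60, and most of the 15, were tested only through their level in the 10 cells. A gene tested in this way could not be called lower. The 15 are therefore not read against the 0.834% of all genes called higher. Likewise, the absence of lower genes is not read against the 0.997% of all genes called lower. With a pseudocount of 10, or with cells of at least 6000 genes, 2 other muscle genes were higher. Of the 10 named above, *Cox6a2*, *Mef2c*, *Musk*, *Myoz2* and *Actn2* were at 10 CPM in 0 of the other 7 cells. With the 3 cells alone against 203 others of their time points, a split chosen after seeing the data, 4.88% of 9896 genes were called higher and 15.7% lower. The median over all genes was then -0.75, and with TMM and with median-ratio factors it was -0.28 and -0.17, which called 652 genes higher and 1095 lower, or 721 and 981, in place of 483 and 1551. The 3 cells were picked by the members, so the calls of members there were fixed by the choice and are not read further. Of the 105 other muscle genes 81 could be tested, most of them only through their level in the 3 cells. With CPM 56 were higher and 3 (*Id1*, *Id2* and *Tpm3*) lower, and with either set of factors 58 and 0. Most of the 56 were likewise tested only through the 3 cells, so these counts are not read against the shares over all genes.

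Among genes on no list, the 10 with the largest difference were *Nts*, *Sct*, *Arpp21*, *Car3*, *Gatm*, *Ngfr*, *Lrrn1*, *Rtn1*, *Klhl13* and *Map1b*. *Arpp21* and *Gatm* were found in all 3 cells, *Arpp21* at 692, 822 and 649 CPM and *Gatm* at 322, 567 and 61.8 CPM. *Car3*, a carbonic anhydrase of slow muscle and fat, reached 24343 CPM in d2 cell 61 and had no UMI in d0 cell 4, and it reached 7961 CPM in a cell outside the 10. *Nts*, the neurotensin precursor, was at 10 CPM in 5 of the other 7 cells and at 0, 0 and 6.18 CPM in the 3, and it reached 3401 CPM in a cell outside the 10.

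Across the 670 cells, the non-member genes whose log2(CPM + 1) went most closely with the mean over the members were *Mymk* (Pearson r = 0.76), *Arpp21* (0.73), *Actn2* (0.70), *Sln* (0.65), *Cox6a2* (0.62), *Dbndd1* (0.56), *Cavin4* (0.55), *Pgam2* (0.54), *3300002P13Rik* (0.51) and *Mb* (0.49). Without the 3 cells these values lay between -0.00 and 0.22, so the likeness rested on 3 points of 670, and cells share their depth in it. Within the list the values differed: r of *Myog* with *Actc1* was 0.60 over all kept cells and 0.42 without the 3, with *Tnnc2* it was 0.60 and 0.32, and with *Myh8* it was 0.55 and -0.02.

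Lists of other cell types were read in the same cells. The summed level of 12 fibroblast markers was 96.5 CPM in d0 cell 4, below all 70 compared cells of d0, whose median was 3563 CPM. It was 668 CPM in d2 cell 61, with 1 of 82 cells below it, and 2465 CPM in d12c cell 14, with 33 of 50 below. The first 2 cells thus stood at the low end of their time point for fibroblast genes. The compared d12c cells had a median of only 400 CPM, so the rank of d12c cell 14 is not comparable with those of the other 2. Its 2465 CPM lay below the medians of d0 and d2, 3563 and 2863 CPM. For 8 cycling genes the sums were 153, 375 and 136 CPM, against medians of 1958, 1876 and 870 CPM, and 4 of 70, 7 of 82 and 8 of 50 cells lay lower. Endothelial markers summed to 0, 4.81 and 0 CPM, and all 7 blood markers were at 0 in each of the 3. The 10 XEN markers summed to 56.3, 19.2 and 30.9 CPM, against medians of 122, 72.6 and 918 CPM. Of 12 cardiac markers only *Sln* and *Myh6* had a UMI in d0 cell 4, only *Sln* in d2 cell 61 and none in d12c cell 14. *Sln* also belongs to the list of calcium handling in skeletal muscle. The 9 smooth muscle markers summed to 3290, 197 and 902 CPM, against medians of 3565, 723 and 7.63 CPM, and *Acta2*, which encodes another alpha-actin, is one of them. The 8 neural and glial markers summed to 925, 178 and 0 CPM, against medians of 27.6, 42.3 and 62.8 CPM, and 925 and 173 CPM of this were *Nes*, an intermediate filament gene that muscle precursors also use. The 6 epithelial markers summed to 0, 0 and 173 CPM, against medians of 1.34, 0.880 and 1758 CPM. Among the other 7 cells with many members, the neural sum was 5436 CPM in d4 cell 53 and 1248 CPM in d4 cell 49, against a d4 median of 18 CPM, and the fibroblast sum ran from 233 to 4146 CPM. The part of these other markers in the member counts was not tested. Whether a cell named here was picked together with another could not be told from its name, and no doublet caller was run.

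Single members were common in the remaining cells. Of the 194 cells with exactly 1 member at 10 CPM, 144 (74.2%) had *Chrna1* and 13 had *Tnnt3*. Of the 201 cells with 2, 35 had this very pair. No cell with 1 member owed it to *Myod1*, and 2 owed it to *Myog*. At 1 UMI, 99 cells had 1 or 2 members. Drawing 50000 UMIs from each of the 647 cells that held as many gave 362 cells with 1 or 2.

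*Chrna1* was a gene of most cells of the course. It had a UMI in 634 of 670 kept cells, and the 3 cells held only 1.89% of its 55662 UMIs. The mean was 93.9 CPM at d0, 96.3 at d1, 255 at d2, 141 at d3, 238 at d4 and 61.5 at d5. It was 104 CPM at d6p, 94.9 at d8, 112 at d8c, 81.2 at d12, 40.9 at d12c and 54.5 at d20. Medians ran lower, at 24.9 CPM at d0, 137 at d2, 97.6 at d4 and 7.90 at d20. A UMI was found in 95.8% of cells at d0, in all 83 at d2 and in 63.2% at d20, and after thinning in 67.6%, 97.6% and 47.2%. Without d2 cell 61 the mean at d2 was 215 CPM. Cells over 1000 CPM numbered 10 outside the 3, such as d4 cell 57 with 1712 and d0 cell 72 with 1626 CPM, and the latter had no other member at 10 CPM. Within d4 the median was 61.2 CPM in cells numbered 1 to 48 and 189 CPM in those over 48.

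*Tnnt3* was highest in the day 8 colony cells. Its mean was 505 CPM at d8c (5168 UMIs, 5028 to 5311) with a median of 115 CPM, while it was 31.3 CPM at d8 (median 14.4) and 9.33 CPM at d12. The 5 highest d8c cells had 2550, 1982, 1642, 1299 and 1132 CPM, and each had 4 members or fewer. Without the highest the mean was 397 CPM. At d0 the mean without d0 cell 4 was 6.84 CPM. *Tnni2*, whose gene lies 54.4 kb away on chromosome 7 in mm9, reached its highest value outside the 3 cells in the same group, 118 CPM in d8c cell 19, but it had a UMI in only 30.0% of d8c cells. *Myog* had no UMI in any d8c cell. Cells of d4 reached the same range, with 1876 CPM in d4 cell 18 and 1114 CPM in d4 cell 68, each with 4 members.

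*Csrp3* appeared late and broadly at a low level. Up to d6p it had a UMI in at most 16.9% of the cells of a time point, at d1 in none of 40. At d8 it had a UMI in 90.3% of cells and at d8c in 18 of 20 cells, at medians of 8.31 and 7.2 CPM, and after thinning the shares were 28.8% and 55.0%. A few cells were far higher: 2955 CPM in d8 cell 30, 1511 in d8 cell 65 and 1065 in d8 cell 23, beside 1384 CPM in d12 cell 59. These cells had 2 to 5 members at 10 CPM. The mean at d8 was 102 CPM (4559 UMIs, 4428 to 4693), and without the highest cell 54.9 CPM. At d12 it had a UMI in 43.3% of cells and at d20 in none of 38, which allows a share of up to 7.89%. Both ranges of running numbers showed the step at d8, with medians of 8.31 and 8.38 CPM.

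**Figure D3:**
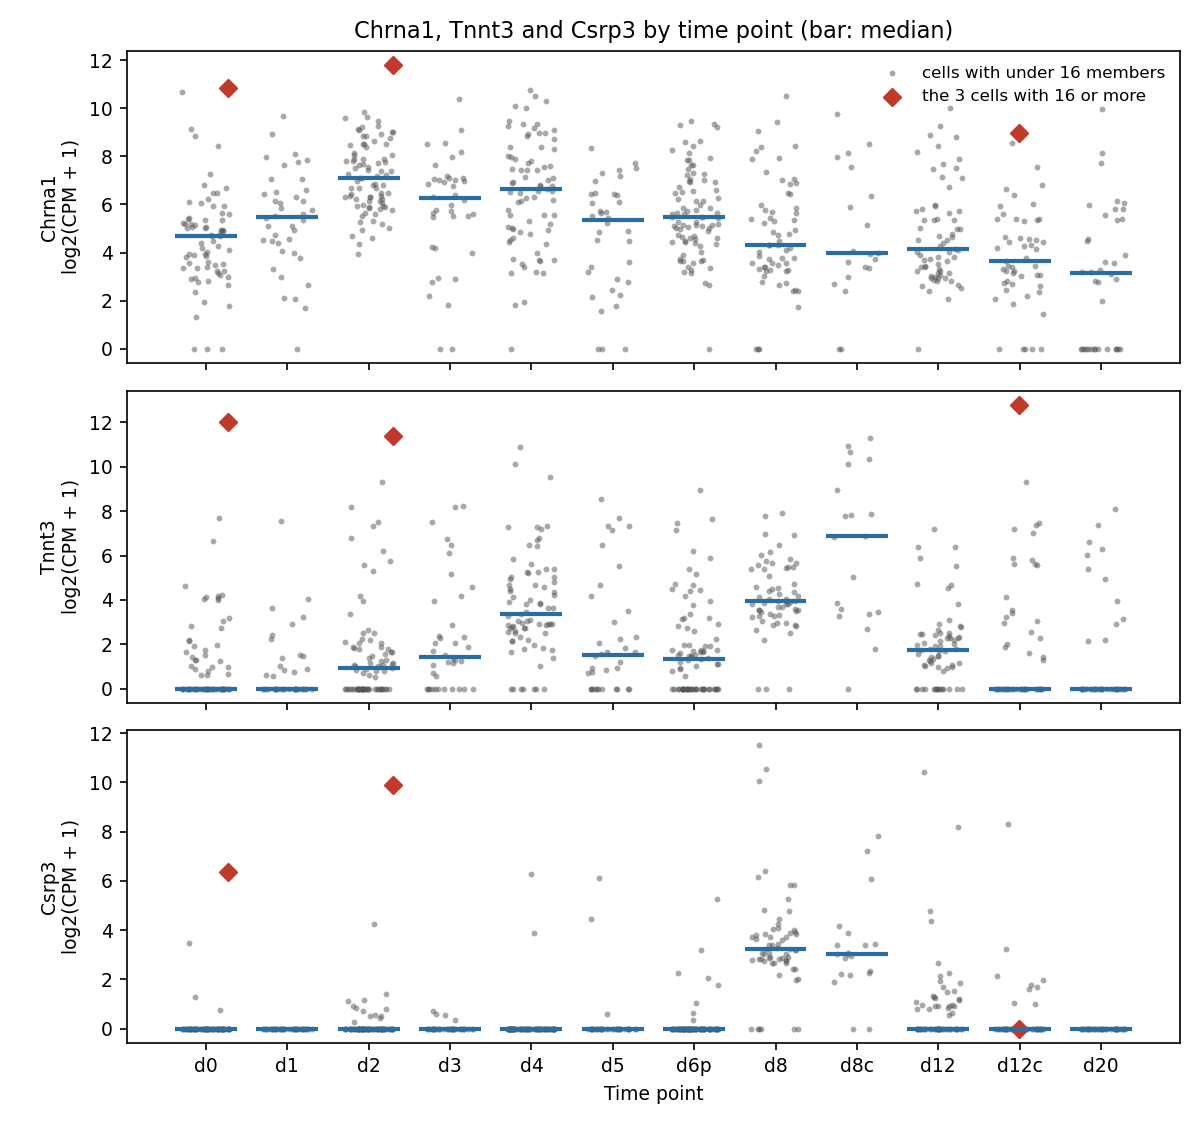
*Chrna1*, *Tnnt3* and *Csrp3* as log2(CPM + 1) (vertical axes) in each kept cell by time point (horizontal axis), with medians as bars and the 3 cells with 19 or 28 members as diamonds. *Chrna1* is present in most cells at all times with its highest medians at d2 and d4, *Tnnt3* has its highest median at d8c, and *Csrp3* has medians above 0 at d8 and d8c and not at the other times, with 3 d8 cells above 1000 CPM.

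The remaining 29 members were then summed per cell. Outside the 3 cells the sum had a median of 26.2 CPM and a highest value of 1407 CPM, in d4 cell 49. These low levels were not spread evenly over the time points or over the running numbers of cells, and the labels do not say what the running numbers stand for. At d4 the cells over 48 had a median of 12 of the 29 members with a UMI and a sum of 108 CPM, and the cells up to 48 a median of 2 and a sum of 5.11 CPM, although the first were shallower (medians 322066 and 778218 UMIs). After thinning the medians were 4 and 0 members. *Myog* had a UMI in 83.8% of the 37 d4 cells over 48 and in none of the 40 up to 48, *Actc1* in 91.9% and 2.5%, and *Tnnc1* in 91.9% and 37.5%. All 6 of the d4 cells with 8 or more members belonged to the numbers over 48.

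**Figure D4:**
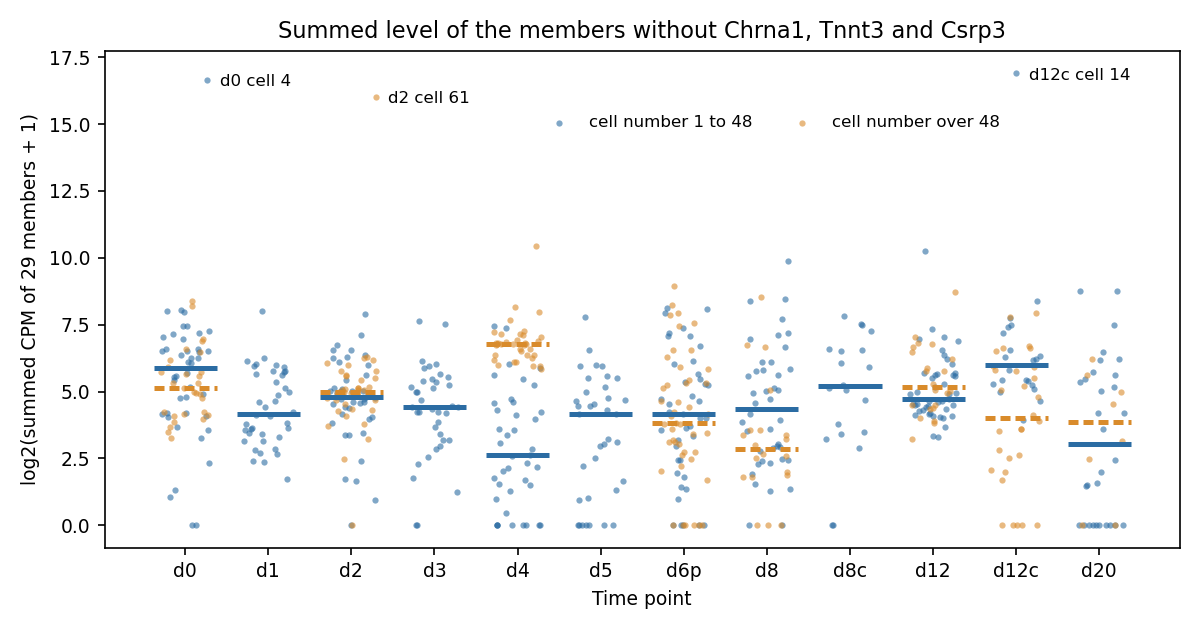
Summed CPM of 29 members (without *Chrna1*, *Tnnt3* and *Csrp3*) as log2(sum + 1) in each kept cell by time point, coloured by running number, with the median of each range as a solid (1 to 48) or dashed (over 48) bar that leaves out the 3 named cells. The 3 cells stand far above all others, and at d4 the median of the cells over 48 lies at 108 CPM against 5.11 CPM for the cells up to 48.

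Other time points held their own low levels. At d2 the cells over 48 had a median of 11 of the 29 members with a UMI and the cells up to 48 a median of 4, but the first were deeper (1256060 against 721613 UMIs), and after thinning both had a median of 1. At d12 *Acta1* had a UMI in 100% of the 45 cells up to 48 and 95.5% of the 22 over 48, at medians of 11.7 and 9.57 CPM, with 31.3 CPM as the highest value of the 67 cells. At d12c it had a UMI in all 20 of the compared cells up to 48 (median 19.8 CPM) and in 10.0% of the 30 over 48. At d8c *Acta1* had a UMI in 1 of 20 cells and at d20 in 3 of 38. A low level of *Acta1* was thus found in nearly all kept cells of d12, at a median depth of 768565 UMIs, and in few of d20, at 195480 UMIs. After thinning the shares were 40.9% and 2.78%.

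The proportion of the actins also differed between these low levels. UMIs of *Acta1* per UMI of *Actc1*, summed over cells below 100 CPM for both actins and *Tnnc1*, were 0.654 in d4 cells over 48 (104 and 159 UMIs) and 0.483 in d0 cells over 48 (28 and 58), but 2.84 in d0 cells up to 48 (207 and 73). They were 3.55 at d1, and 6.20 and 3.60 in the d2 cells up to and over 48. They were 6.09 and 6.80 in the d12 cells up to and over 48 (487 and 80, and 204 and 30 UMIs) and 3.09 in d12c cells up to 48. The high cells of d0, d2 and d12c had 0.832, 1.60 and 6.34, and the proportion thus varied between ranges of 1 time point as well as between time points. UMIs of *Acta1* per UMI of *Tnnc1* were 0.435 in d4 cells over 48, and 3.93 and 1.91 in the d12 cells up to and over 48. RNA that was free in the sample and RNA made in the cell cannot be told apart at these levels.

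Levels were also compared between time points. Members were tested where the mean of log2(CPM + 1) reached 1 at either end, which 9 of the 32 did. Of these only *Chrna1*, with a d0 mean of 4.59, could be called lower, since the other d0 means ran from 1.08 to 1.90. From d0 to d12, 7.21% of 9611 genes were called higher and 4.19% lower. *Acta1* rose by 2.08, from a mean of 1.52 to 3.60, and no other member passed 2 in either direction. This 1 of 9 (11.1%) lay near the share called over all genes and is not read as a result about the members. The median over the 9 members was 0.12 and over all genes -0.01. Of 25 other muscle genes, *Tcf4* and *Cryab* were higher and *Eno3* and *Ncam1* lower at d12. With a pseudocount of 10 no member passed. From d0 to d20, 4.38% of 9352 genes were called higher and 8.92% lower. None of the 9 members passed 2, and again only *Chrna1* could have been called lower. The median of the 9 was -1.25 against -0.20 over all genes (-0.36 with TMM factors), with *Tnnc1* at -1.54 and *Chrna1* at -1.55. Most of the 9 were tested only through their d0 level, which by itself lowers this median, so it is not read as a result about the members. Of the other muscle genes 25 could be tested, and 11 (44.0%) were lower at d20. Among them were *Tpm2* (-7.74), a tropomyosin, and *Cryab* (-7.10), a small heat shock protein, with d0 means of 8.77 and 8.74. Each of the 11 had a UMI in most of the compared cells of d0, d2 and d12c, which lacked many members. The 44.0% is therefore not read against the 8.92% of all genes, or as a fall of a muscle program. Median depth differed between the groups, with 344196 UMIs at d0 and 195480 at d20. Single cells carried some of the means: without d0 cell 4 the mean of *Myog* at d0 was 5.80 CPM in place of 67.2, and without d12c cell 14 the mean of *Acta1* at d12c was 12.0 CPM in place of 1045.

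Positions of the members in mm9 (GENCODE M1) bear on how reads could be shared. *Mylpf* lies at chr7:134355122-134357812, *Myog* at chr1:136186581-136189124 and *Acta1* at chr8:126415669-126418651. *Tnnc2* (chr2:164602661-164605467) overlaps *Ube2c*, a cell cycle gene, and *Tnnc1* (chr14:32021498-32024915) overlaps *Nisch*. Further members overlap other annotated genes, among them *Acta1* (*Gm20388*), *Actc1* (*RP23-230H3.2*) and *Tnnt3* (*Gm14492*). Since the use of strand in counting is not stated, low values of all these members are uncertain. *Tnni1* and *Tnnt2* lie 29.9 kb apart on chromosome 1, and *Myf6* and *Myf5* 6.72 kb apart on chromosome 10. *Mymx* is listed there under the name *Gm7325*.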

How the data were processed

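Cells were picked by hand, and per the labels the authors assigned reads to cells by barcode and, after trimming and alignment to mouse transcripts of mm9, counted each unique molecular identifier (UMI) once. Which aligner and cell filter they used is not given in the sources used here. The deposited values are whole counts of UMIs per gene and cell, with 92 ERCC rows beside the genes. Dates stood in place of 26 gene names, and 4 of these rows that were listed more than once were left out. The 32 members, the lists and most settings were chosen with earlier results of these data known.

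Counts were scaled to CPM without ERCC rows (5.43% of the counts of kept cells). Kept cells had at least 4000 detected genes. Log2 values took a pseudocount of 1. Cells were thinned once to 50000 UMIs, without 23 kept cells that had fewer. Running numbers were split after 48, which is no stated batch. Intervals are exact Poisson or exact Clopper-Pearson at 95% and cover counting error only, and a count of 0 was read as allowing up to 3. The named genes are all members, the 10 other muscle genes and the 10 genes on no list with the largest difference between cells with 8 or more members and the others, and the 10 non-members with the highest correlation with the members. *Tpm2*, *Tpm3*, *Cryab*, *Tcf4*, *Ncam1*, *Id1*, *Id2*, *Myh6*, *Pax7*, *Nes* and genes that overlap members were named after their values or positions were seen. The contrast was tested on simulated data. Python 3.11.15, numpy 2.4.6, pandas 2.3.3 and scipy 1.17.1 were used, with edgeR 4.0.16 and DESeq2 1.42.0 for scaling factors. Alternatives covered the filter on cells, the number and level of members, the members counted, scaling, pseudocount, the filter on low values and the compared cells. No doublet caller was run on these hand-picked cells. Promoter windows are from RefSeq on GRCm38.p6 and gene positions from GENCODE M1 on mm9.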

Additional observations from a re-analysis of the deposited data

Results flagged for a closer look

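A cell outside the comparisons carried many members. d8 cell 45, with 6922 UMIs and 2118 detected genes, was 1 of the 138 cells removed by the filter on genes. It had a UMI of 14 members and 33 member UMIs in all (exact Poisson interval 22.7 to 46.3), or 4767 CPM, against a median of 72.8 CPM over the removed cells. Among these were 5 UMIs each of *Acta1*, *Tnnc2* and *Chrna1*, 4 of *Tnnc1*, 3 each of *Tnni1* and *Neb* and 1 of *Myog*. The next removed cell by number of members, d12c cell 50, had 7. The result was taken up because the cell lies outside the kept cells and its member count lies above the level that a count of 0 allows. Its part in the low levels of other d8 cells was not tested.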

How the results depend on the processing

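The count of cells with 8 or more members hung on where the limits were set. It was 10 as reported, 11 with no filter on cells or with 2000 genes, 7 with 6000 genes, 9 with ERCC in the library size and 10 at 1 UMI after thinning. It was 109, 3 and 3 when 4, 12 or 16 members were asked for, and 152, 4 and 3 at 1, 20 and 50 CPM. It was 220 at 1 UMI, 4 without the members with a UMI in most d0 cells (*Acta1*, *Tnnc1* and *Chrna1*) and 4 without *Actc1*, *Acta1*, *Tnnt2*, *Des* and *Csrp3*. The count of 3 cells with 16 or more members, added after seeing the data, was 3 with no filter on cells, with 2000 genes, at 20 and 50 CPM, after thinning and with ERCC, 1 with 6000 genes (d2 cell 61), 15 at 1 CPM and 30 at 1 UMI. With a pseudocount of 10 the counts of higher genes in the 10 cells fell to 15 members and 2 other muscle genes, and in the 3 cells to 34 other muscle genes. With 6000 genes the 10 cells became 7, with 2 other muscle genes higher. From d0 to d12 a pseudocount of 10 gave 0 members higher and 1 other muscle gene lower in place of 2. From d0 to d20 it gave 0 other muscle genes higher and 6 lower, and 6000 genes gave 1 member and 2 other muscle genes higher. Leaving out the filter on low values moved none of the counts of members and other muscle genes. TMM and median-ratio factors moved none by over 1.5 times but other muscle genes lower in the 3 cells, from 3 to 0, and median-ratio factors took all genes lower there from 1551 to 981. Mean levels rested on few cells. Medians in place of means were 137 (*Chrna1*, d2), 97.6 (*Chrna1*, d4), 115 (*Tnnt3*, d8c), 8.31 (*Csrp3*, d8), 0 (*Myog*, d0), 0 (*Acta1*, d12c) and 11.3 CPM (*Acta1*, d12). Means without the highest cell were 215, 219, 397, 54.9, 5.80 and 12.0 CPM for the first 6, and without the 3 cells 215, 5.80 and 12.0 CPM where one was present. With no filter on cells they were 216 (*Chrna1*, d4), 442 (*Tnnt3*), 92.3 (*Csrp3*), 57.6 (*Myog*), 592 (*Acta1*, d12c) and 16.5 CPM (*Acta1*, d12). Cells with 1 or 2 members numbered 395 at 10 CPM, 99 at 1 UMI and 362 at 1 UMI after thinning. No paired analysis was possible because cell names hold no batch, and for the same reason no replicate could be left out. Depth limits the rest: a cell of 50000 UMIs shows 1 UMI as 20 CPM, so members at a few CPM are read only over many cells.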
